A study of Mus musculus with 12 samples.

Results

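The MYC, MAX and MXD network is a group of related transcription factors that compete for a common partner, MAX. Its 10 genes were chosen by name (Myc, Mycn, Mycl, Max, Mxd1, Mxd3, Mxd4, Mxi1, Mnt and Mga), and all 10 were found among the 24421 genes listed in the deposited counts. RNA was sequenced from mouse embryonic fibroblasts (MEFs) of a control line named Null and of a line in which Tfeb and Tfe3 had both been targeted by CRISPR-Cas9 (TFEB/TFE3 DKO, here DKO). The groups were untreated Null, untreated DKO, Null given 100 µM etoposide for 8 h and DKO given 100 µM etoposide for 8 h, with 3 libraries in each and 12 in all. Etoposide is a topoisomerase II poison that breaks DNA, and the design asks how far the response to that damage differs without TFEB and TFE3. The labels call the control cells untreated, whereas the methods of the study describe a DMSO vehicle for control cells. Each genotype was represented by 1 line, so genotype and line cannot be told apart. The MEFs were an SV40-immortalised line, and the large T antigen of SV40 binds p53. Nothing in the labels says that the libraries of a group came from separate cultures, and p-values then measure only the spread between these libraries, which may be technical. Between 45577023 and 104120871 counts fell on genes in a library (median 71634158.5).

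MYC, MYCN and MYCL each pair with MAX through a basic helix-loop-helix leucine zipper and bind a short DNA sequence, the E-box, mostly to raise transcription of genes for ribosome building, metabolism and the cell cycle. MXD1, MXD3, MXD4, MXI1 and MNT pair with MAX at the same sites and bring in the SIN3 corepressor, and MGA pairs with MAX inside a Polycomb complex, PRC1.6. TFEB and TFE3 have a basic helix-loop-helix leucine zipper too and bind E-boxes, among them the CLEAR element of lysosomal genes. In fibroblasts, MYC is known as an early-response gene of growth signals.

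Because these factors read E-boxes, the letters CACGTG and CACGCG (a weaker MYC-MAX site) and TCACGTGA (the core of the CLEAR element) were looked for on both strands of the RefSeq promoter windows (GRCm38.p6), which run from 250 bases before to 50 bases after a transcription start. TCACGTGA holds CACGTG within it. Windows were found for 9 of the 10 genes, 11 windows in all, with none for Myc. CACGTG stood in the windows of 3 of them (Max, Mxd4 and Mnt) and CACGCG, in either direction, in those of 2 (Mycl and Mga), while TCACGTGA was in none of the 11. Of all 32851 windows, 7.15% held CACGTG, 9.27% held CACGCG and 0.974% held TCACGTGA. Counted by gene, as the members are, the shares of 27025 genes were 8.09%, 10.5% and 1.12%. The stretches around these 5 matches are shown 5′ to 3′ on the strand of the gene, up to 30 bases either side and ending at the start site, with the matched letters in capitals. They are chr12:76962246-76962281 (minus strand) for Max, chr5:34187894-34187959 (minus) for Mxd4, chr11:74830771-74830836 (plus) for Mnt, chr4:122995881-122995930 (plus) for Mycl and chr2:119897177-119897227 (plus) for Mga.
Max: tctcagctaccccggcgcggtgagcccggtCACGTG
Mxd4: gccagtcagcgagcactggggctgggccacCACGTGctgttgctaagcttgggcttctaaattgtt
Mnt: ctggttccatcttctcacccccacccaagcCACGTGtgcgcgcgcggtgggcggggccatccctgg
Mycl: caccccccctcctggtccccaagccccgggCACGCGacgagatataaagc
Mga: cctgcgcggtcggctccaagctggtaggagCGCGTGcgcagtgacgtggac
The Max match begins 3 bases before the start and crosses it, and the matches of Mycl, Mga, Mnt and Mxd4 begin 20, 21, 123 and 219 bases before theirs. A match is a description of letters, and the windows without one (Mycn, Mxd1, Mxd3 and the 3 of Mxi1) lack only these letters in these bases.

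Levels are given as normalised read counts (CPM, counts scaled to a common library size), with library sizes adjusted by the TMM method. The targeted genes were read first. Tfeb stood at 38.9, 39.2 and 42.1 CPM in untreated Null libraries and at 4.6, 6.09 and 4.68 CPM in untreated DKO libraries. After etoposide it stood at 11.4, 10.2 and 10.4 CPM in Null and at 1.92, 1.61 and 2.2 CPM in DKO. Tfeb was thus lower in every DKO library than in every Null library of the same treatment, although reads remained, and its log2 fold change between genotypes was -2.94 untreated and -2.46 after etoposide. Tfe3 was at 115, 110 and 114 CPM in untreated Null and 94.1, 93.1 and 91 CPM in untreated DKO, and its ranges after etoposide overlapped (68.1 to 69.6 CPM in Null, 63.4 to 71.2 CPM in DKO). Counts over a whole gene do not show a small edit, so the Tfe3 level neither matches nor contradicts the label.

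Fibroblast markers were abundant. Their 10 genes summed to between 7080 and 7190 CPM in untreated Null, 11500 and 12100 CPM in untreated DKO, 3960 and 4050 CPM in Null with etoposide and 5010 and 5340 CPM in DKO with etoposide, led by Vim or Fn1. Thy1, a surface marker of many fibroblasts, was an exception at 0.0365 ± 0.022 CPM (SD, n = 3) in untreated DKO against 4.21 ± 0.251 CPM in untreated Null, and Dcn stayed under 3 CPM on average in each group. Of the other lineages, 5 epithelial markers summed to 2.32 to 2.95 CPM in untreated Null and 5.17 to 5.94 CPM in untreated DKO (mostly Krt8). In the etoposide libraries they summed to 2.07 to 2.83 CPM. Krt8 averaged 1.49 CPM in untreated Null and 4.58 CPM in untreated DKO. Epcam (0.366 and 0.0382 CPM) and Krt18 (0.296 and 0.0327 CPM) went the other way. By the test described below, 1 of the 5 was higher in untreated DKO and 2 were lower. The 4 endothelial markers summed to at most 0.221 CPM in an untreated library, and with etoposide to 2.19 to 2.89 CPM in Null and 0.888 to 1.52 CPM in DKO. The 5 leukocyte markers summed to 13.2, 13 and 14 CPM in Null with etoposide against 1.57 to 1.85 CPM in untreated Null, nearly all of it Cd68 (11.5 to 12.5 CPM after etoposide), with Ptprc at 0.366 ± 0.162 CPM and Adgre1 at 0.0292 ± 0.0505 CPM. In DKO they summed to 1.71 to 2.75 CPM untreated and 3.82 to 4.82 CPM with etoposide. The 4 muscle markers summed to 33.9, 38.3 and 39.3 CPM in Null with etoposide against 3 to 3.37 CPM in untreated Null, led by Des. Their sums in DKO were 3.84 to 4.6 CPM untreated and between 3.74 and 4.78 CPM with etoposide. Des rose on average from 2.11 to 36.3 CPM in Null and from 0.386 to 2.44 CPM in DKO. Acta1 fell from 1.02 to 0.595 CPM in Null, where its replicates overlapped, and from 3.73 to 1.94 CPM in DKO. Myod1 was at 0 in every untreated library. All 5 sums moved with treatment or genotype, and their part in the results on the network was not tested. In bulk RNA, fewer cells of a kind and less RNA per cell cannot be told apart.

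Myc itself (chr15:61985391-61990374, plus strand, GRCm38) was the most abundant transcript of the network per length. It was counted at 265, 260 and 231 CPM in untreated Null libraries and at 290, 296 and 270 CPM in untreated DKO libraries. With etoposide it was counted at 98.1, 93.2 and 83.6 CPM in Null and at 67.2, 64.5 and 63.9 CPM in DKO. The 4 groups did not overlap, and their order was untreated DKO, untreated Null, Null with etoposide and DKO with etoposide. Mycn (chr12:12936093-12941914, minus strand), the paralog best known from the developing nervous system, had 0 counts in all 12 libraries. A floor of 3 counts per library, which covers counting error only, corresponds to between 0.0298 and 0.0607 CPM, so Mycn lay below that level or was not expressed, and it entered no test. Mycl (chr4:122995652-123002485, plus strand), the third paralog, was low in Null and higher in DKO. It stood at 1.43, 0.937 and 0.741 CPM in untreated Null and at 9.75, 10.6 and 7.78 CPM in untreated DKO. With etoposide Mycl stood at 2.1, 1.84 and 1.93 CPM in Null and at 2.37, 2.92 and 2.56 CPM in DKO. The untreated DKO libraries thus stood apart from the other 9, and those counts were between 464 and 975 per library against 48 to 116 in untreated Null.

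Max (chr12:76937269-76962201, minus strand), the shared partner, was counted at 49.8, 52.8 and 52.1 CPM in untreated Null libraries and at 36.8, 36.9 and 37.7 CPM in untreated DKO libraries. With etoposide Max was counted at 31, 29.4 and 31.9 CPM in Null and at 40.4, 39.4 and 41 CPM in DKO. The order of its groups, untreated Null, DKO with etoposide, untreated DKO, Null with etoposide, had no overlap between neighbours. Mga (chr2:119897228-119969581, plus strand), the largest gene of the network, was likewise lowest in Null with etoposide. It was counted at 170, 180 and 171 CPM in untreated Null and at 164, 164 and 173 CPM in untreated DKO, which overlapped. With etoposide Mga fell to 110, 104 and 94.6 CPM in Null but stood at 149, 153 and 152 CPM in DKO.

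Among the antagonists, Mxd1 and Mxi1 were high in every etoposide library and Mnt was low in every one. Mxd1 (chr6:86647042-86669161, minus strand), which rises in many cells as they stop dividing, was at 9.13, 8.73 and 7.82 CPM in untreated Null and 7.87, 8.5 and 7.9 CPM in untreated DKO. After etoposide Mxd1 was at 19.1, 19.2 and 20.8 CPM in Null and 14.6, 15.4 and 15.7 CPM in DKO. Mxi1 (chr19:53310518-53375810, plus strand) was alike, with a mean of 15.7 ± 1.27 CPM (SD, n = 3) in untreated Null, 15.6 ± 0.578 in untreated DKO, 28.3 ± 0.605 in Null with etoposide and 24.1 ± 1.25 in DKO with etoposide. For both genes the untreated genotypes overlapped, and Null with etoposide was highest. Mxd4 (chr5:34173883-34187720, minus strand) was highest in Null with etoposide, at 36.3, 36.2 and 39.4 CPM, and lay between 24 and 28.3 CPM in the other 9 libraries. Mxd3 (chr13:55325168-55329823, minus strand), known for expression in dividing cells, was at 12.1, 13.4 and 12.6 CPM in untreated Null and 17.1, 14.9 and 14.4 CPM in untreated DKO, and at 15.4, 15.5 and 17.2 CPM in Null and 11, 10.9 and 10.9 CPM in DKO with etoposide. Mnt (chr11:74830920-74845725, plus strand), the most widely expressed antagonist, was at 23.3, 27.2 and 26.8 CPM in untreated Null and 22.6, 23.6 and 21.3 CPM in untreated DKO. With etoposide Mnt was at 9.39, 9.72 and 9.74 CPM in Null and 10.8, 11.3 and 8.88 CPM in DKO, with overlap between genotypes in both states.

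**Figure D1:**
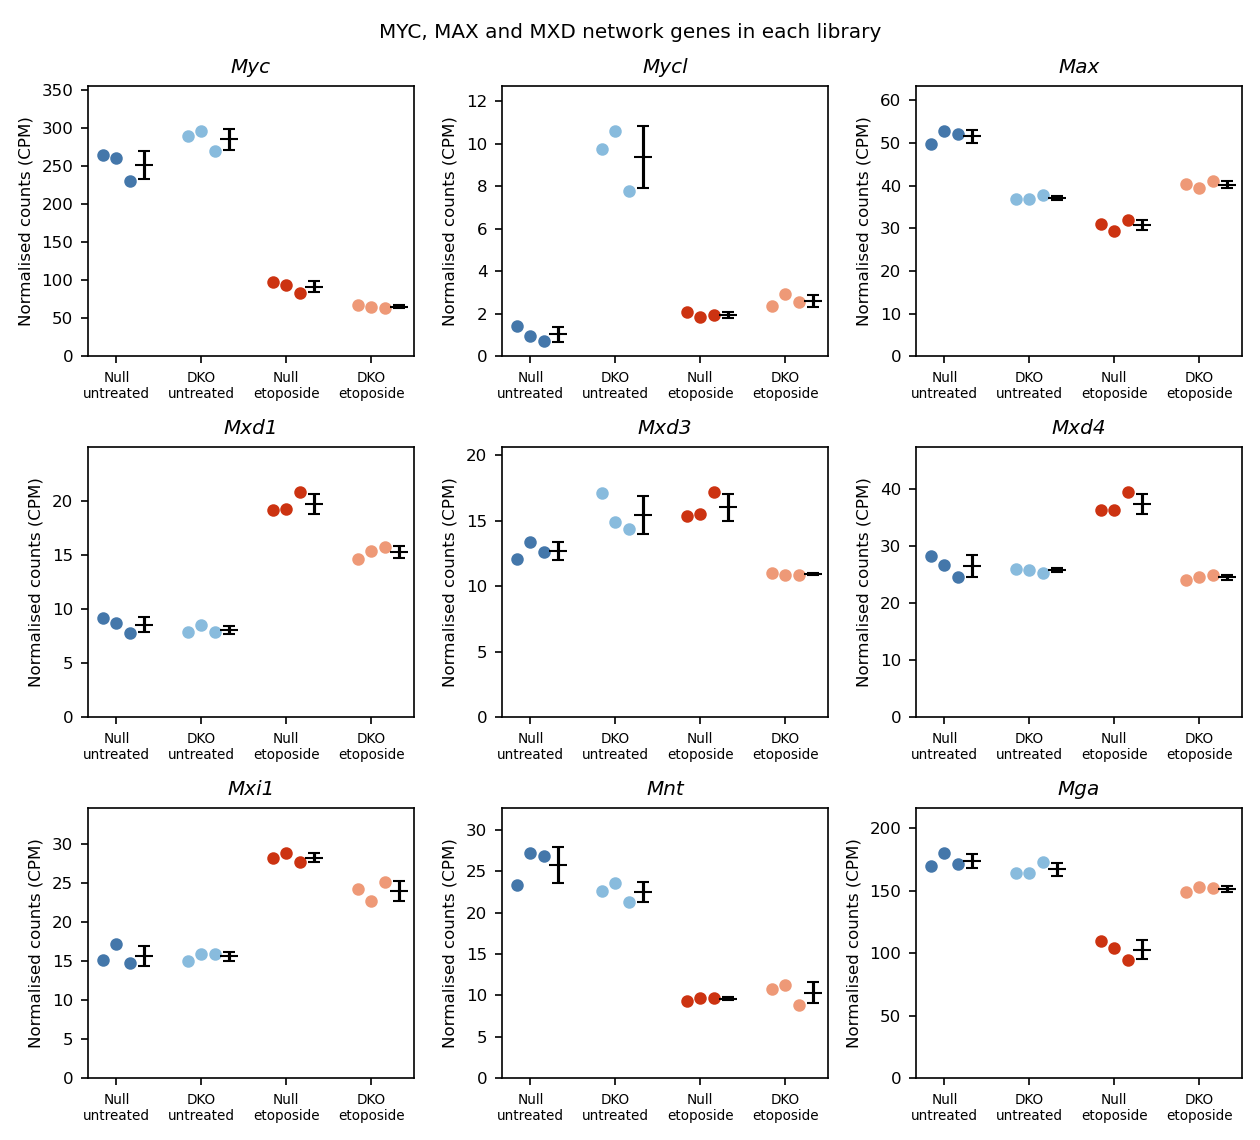
Normalised counts (CPM, linear axis from 0) of the 9 network genes with any counts in each of the 12 libraries, by group. Points are libraries and the black mark beside them is the mean ± SD of 3. Myc and Mnt are low in all etoposide libraries, Mxd1 and Mxi1 are high in them, and Mycl is high in untreated DKO only.

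Some exons lie over a gene on the other strand: 105 bases of Mxd3 over Prelid1, 514 of Mxd4 over Gm42846 and 194 of Mxi1 over Gm10197. The library kit keeps strand, but the strand setting of the counting was not given, and without it such reads cannot be told apart. Prelid1 stood at 229 ± 6.48 CPM in untreated Null, 195 ± 2.82 CPM in untreated DKO, 185 ± 7.16 CPM in Null with etoposide and 162 ± 3.06 CPM in DKO with etoposide (SD, n = 3). Its log2 fold change with etoposide was -0.31 in Null, where Mxd3 was higher, and -0.26 in DKO, where Mxd3 was lower. Between genotypes (DKO against Null) it was -0.24 untreated, where Mxd3 was higher in DKO, and -0.19 after etoposide, where Mxd3 was lower, and its interaction was 0.04. The part of Prelid1 reads in the Mxd3 values was not tested. No exon of a member overlapped another gene on its own strand.

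Levels of different genes were compared only after division by the length of their merged exons (from 2.37 kb for Mxd3 to 15.34 kb for Mga), as CPM per kb. Summed over the network, the transcripts came to 136 ± 7.23 CPM per kb (SD, n = 3) in untreated Null, 147 ± 5.86 in untreated DKO, 69.7 ± 2.4 in Null with etoposide and 61.2 ± 0.462 in DKO with etoposide. The Myc share of that sum was 68% ± 1.65 in untreated Null and 71.7% ± 0.764 in untreated DKO. It was 48.4% ± 2.34 in Null and 39.3% ± 0.737 in DKO after etoposide, without overlap between any pair of these groups. Mxd1, Mxd3, Mxd4 and Mxi1 together held 8.81% ± 0.22 and 8.87% ± 0.293 of the sum in untreated Null and DKO, and 26% ± 1.86 and 21.6% ± 0.436 after etoposide. The ratio of Myc to its 5 antagonists (those genes and Mnt) was 5.28 ± 0.408 and 5.89 ± 0.15 in the untreated genotypes, and 1.67 ± 0.191 and 1.56 ± 0.0379 after etoposide, where their ranges overlapped (1.46 to 1.83 in Null, 1.53 to 1.6 in DKO). The ratio of Myc to Max, in contrast, was 10.2 ± 0.592 in untreated DKO against 6.48 ± 0.581 in untreated Null, and 2.14 ± 0.0737 in DKO against 3.95 ± 0.413 in Null with etoposide. These shares and ratios describe transcripts, not proteins, and were not tested.

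**Figure D2:**
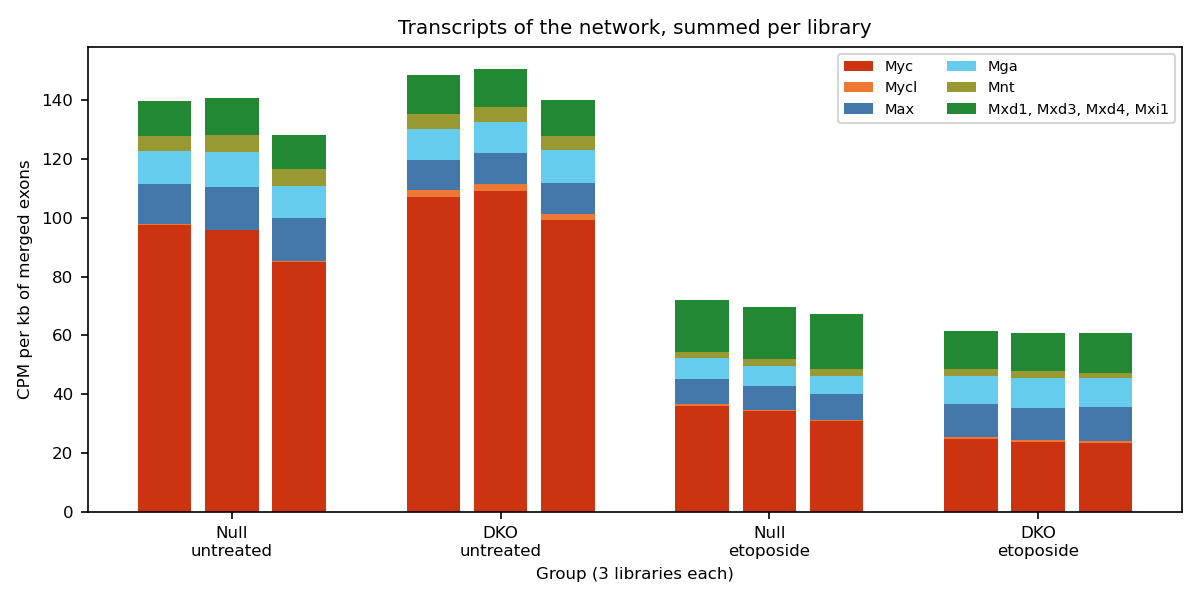
Summed transcripts of the network in each library (CPM per kb of merged exons, stacked, linear axis from 0). Each bar is a library, 3 per group. The Myc segment shrinks most with etoposide, while the segment of Mxd1, Mxd3, Mxd4 and Mxi1 does not.

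Differences were tested with edgeR's quasi-likelihood test over the 15220 genes that passed a filter on low counts, 9 of the 10 members among them, with Benjamini-Hochberg adjustment over all of these and a threshold of 0.05. Fold changes are on the log2 scale with their standard errors (SE). The replicates were tight, so most genes passed the threshold, and counts of members are to be read against that background. The etoposide comparison in Null shares its untreated libraries with the untreated comparison of genotypes, and likewise for the other pairs.

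The first comparison asked what etoposide changed in Null cells. All 9 tested members passed the threshold, against a background of 79.4% of all genes. Myc fell by 1.46 (SE 0.06, adjusted p = 1.43e-13), with 480 of the 15220 genes falling further. Mnt fell by 1.42 (SE 0.08, adjusted p = 3.59e-11), Mga fell by 0.75 and Max fell by 0.74, which makes 4 members lower against 37.2% of all genes lower. Mxd1 rose by 1.2 (SE 0.07, adjusted p = 2.68e-11), Mycl by 0.88 (SE 0.23), Mxi1 by 0.85, Mxd4 by 0.49 and Mxd3 by 0.33 (SE 0.07, adjusted p = 0.000422), 5 members higher against 42.3% of all genes higher. In no member did the replicates of the 2 groups overlap, but the share of all genes without overlap is not given here. The MXD and MXI1 genes thus rose while Myc and its partner fell, under TMM and under each other scaling used. Library size alone moved the median fold change of all genes by 0.17 here, and took the split of calls from 6435 higher and 5656 lower to 7806 and 4396.

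In DKO cells, etoposide changed Myc more and Max and Mga less. Of the 9 tested members 8 passed the threshold (75.1% of all genes did), 3 higher (43.7% of all genes) and 5 lower (31.5%). Myc fell by 2.13 (SE 0.06, adjusted p = 1.87e-15), 4.38-fold, and only 236 genes fell further. Mycl fell by 1.85 (SE 0.14) and Mnt fell by 1.14 (SE 0.08). Mxd1 rose by 0.91 and Mxi1 by 0.62. Mxd3 fell by 0.5 (SE 0.07, adjusted p = 1.14e-05), with -0.22 under library size alone. Mxd4 had a log2 fold change of -0.07 (SE 0.05, adjusted p = 0.272), which was 0.205 under library size alone (adjusted p = 0.00237) and -0.115 in a fit of the DKO libraries alone (0.0405), in a range of 0.00237 to 0.602 over 15 alternatives. Max rose by 0.12 (SE 0.04, adjusted p = 0.0192), with values from 0.07 to 0.39 over its 15 alternatives, the highest under library size alone. This call ended without untreated DKO replicate 1 (adjusted p = 0.0753) or 2 (0.0707), without etoposide DKO replicate 1 (0.0792) or 3 (0.064), and in 3 other settings, with a range of 1.93e-07 to 0.171. Mga fell by 0.14 (SE 0.05, adjusted p = 0.0102), but was 0.132 higher under library size alone, and did not pass with a stricter filter on low counts (adjusted p = 0.0532, the highest of its alternatives, from 0.000275). Library size alone moved the median of all genes by 0.27 and the split of calls from 6645 higher and 4790 lower to 9316 and 3004.

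Before treatment, the genotypes differed most in Mycl. Of the 9 tested members, 5 passed the threshold, against 66.7% of all genes, 3 of them higher in DKO (33.3% of all genes) and 2 lower (33.4%). Mycl was higher in DKO by 3.15 (SE 0.17, adjusted p = 2.62e-11), 8.91-fold, with 252 genes showing a larger difference in that direction. Max was lower by a log2 fold change of -0.47 (SE 0.04, adjusted p = 1.78e-08), and Mxd3 was higher by 0.28 (SE 0.07, adjusted p = 0.00242). Mnt was lower, at -0.19 (SE 0.08, adjusted p = 0.0399), although its replicates overlapped. Without untreated Null replicate 2 or 3 the adjusted p of Mnt was 0.145 or 0.125, and without untreated DKO replicate 1 or 3 it was 0.0785 or 0.134, within a range of 0.00176 to 0.145 over 15 alternatives, while library size alone gave -0.31. Myc was higher in DKO by 0.18 (SE 0.06, adjusted p = 0.00892), a call that ended under library size alone (adjusted p = 0.369), without untreated Null replicate 3 (0.063) and without untreated DKO replicate 2 (0.0504), with 0.000404 as the lowest of 15 alternatives. Mxd1, Mxd4, Mxi1 and Mga had log2 fold changes of -0.08, -0.05, -0.01 and -0.06 and did not pass. Library size alone moved the median of all genes by -0.12 and the split of calls from 5066 higher and 5091 lower to 3977 and 6393, and under it Mxd1, Mxd4 and Mga also passed as lower, while Mxd3 did not pass.

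After etoposide, Myc and the MXD genes were lower in DKO than in Null, and Mga and Max were higher. Of the 9 tested members, 8 passed the threshold, against 74% of all genes, with 3 higher in DKO (37.5% of all genes) and 5 lower (36.6%). Mxd4 had the lowest value, -0.61 (SE 0.05, adjusted p = 1.34e-08), followed by Mxd3 at -0.55, Myc at -0.49 (SE 0.06, adjusted p = 6.56e-07), Mxd1 at -0.36 and Mxi1 at -0.23. Mga was higher by 0.55 (SE 0.05, adjusted p = 6.22e-09) and Max by 0.39 (SE 0.04, adjusted p = 2.32e-07). In these 7 genes the replicates of the genotypes did not overlap, although the share of all genes without overlap is not given here. The direction of the 7 held under every scaling. Mycl was higher by 0.43 (SE 0.19, adjusted p = 0.0462), and this call did not hold in 11 of its 15 alternatives (0.0188 to 0.147), among them the omission of any etoposide library. The adjusted p of Mycl was 0.0597, 0.121 and 0.0854 without Null replicates 1, 2 and 3, and 0.0525, 0.147 and 0.0741 without DKO replicates 1, 2 and 3. Mnt did not pass (0.09, SE 0.09, adjusted p = 0.375), except without DKO replicate 3 (adjusted p = 0.0342), with a range of 0.0342 to 0.929. The split of all calls, 5701 higher and 5569 lower, turned under other scalings. It was 5072 and 6096 with the size factors of DESeq2, 5002 and 5818 in DESeq2 itself, and 5539 and 5705 under library size alone.

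The interaction tested whether etoposide changed a gene by a different amount in DKO than in Null. Of the 9 tested members, 8 passed, against 54% of all genes, with 2 above 0 (29.6% of all genes) and 6 below (24.4%). Max had 0.86 (SE 0.06, adjusted p = 1.8e-09) and Mga 0.61 (SE 0.06, adjusted p = 3.66e-07), so their fall in Null was larger than any change in DKO. Mycl had the value furthest from 0, -2.73 (SE 0.27, adjusted p = 1.57e-07), having risen in Null and fallen in DKO. Mxd3 (-0.83, SE 0.1) also moved in opposite directions in the genotypes, whereas Myc (-0.67, SE 0.08, adjusted p = 1.74e-06) fell in both and further in DKO. Mxd4 had -0.56 (SE 0.08). Mxd1 (-0.28, adjusted p = 0.0234) and Mxi1 (-0.23, adjusted p = 0.0325) rose in both genotypes. The Mxd1 call ended under library size alone (adjusted p = 0.132) and without untreated Null replicate 3 (0.0689), untreated DKO replicate 2 (0.074) or etoposide Null replicate 3 (0.0546), in a range of 0.00399 to 0.132. The Mxi1 call ended under library size alone (adjusted p = 0.229), without untreated Null replicate 1 (0.0805) or 3 (0.0854), untreated DKO replicate 2 (0.0765) or 3 (0.0582), or replicate 2 of Null (0.0659) or DKO (0.0868) with etoposide, in a range of 0.00496 to 0.229. Mnt missed the threshold (0.28, SE 0.12, adjusted p = 0.0575) but passed in 6 of its 20 alternatives (0.00424 to 0.181), among them the omission of untreated Null replicate 1 (0.0183) or etoposide DKO replicate 3 (0.00424), limma-trend (0.0426) and the older version of the same test (0.0498), which was added after seeing the data. The split of all calls, 4507 above 0 and 3719 below, depended on scaling. It was 5734 and 3055 under library size alone, but turned to 3796 and 4192 with the size factors of DESeq2 and to 3937 and 4371 in DESeq2 itself.

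**Figure D3:**
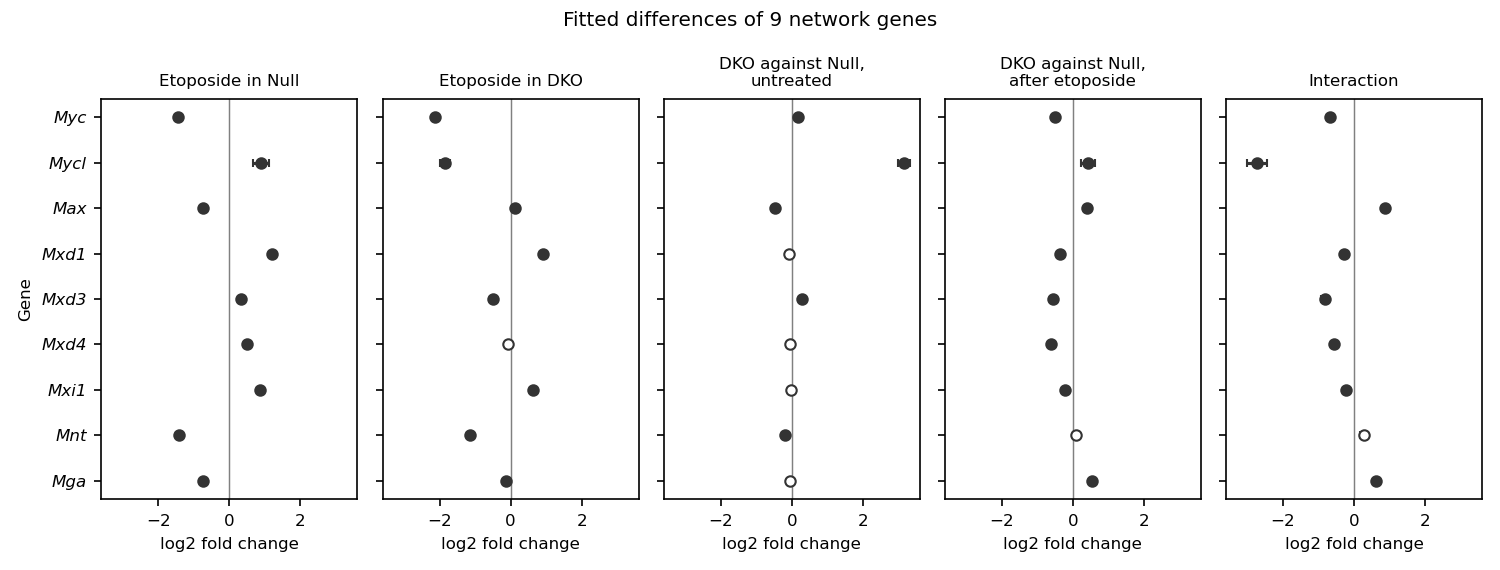
Fitted log2 fold changes of the 9 tested members (points, with bars of 1 SE) in the 5 comparisons. Filled points passed the threshold of 0.05 on the adjusted p and open points did not. Mycl reaches 3.15 in untreated DKO against Null and -2.73 in the interaction, and Max and Mga are the filled points above 0 in the interaction.

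For each tested member, the 3 genes with the most similar profile were picked by Pearson correlation of log2 CPM over the 12 libraries, taking tested genes that averaged 10 CPM or more. The libraries fall into 4 groups, so such a correlation mostly compares group means and is given as a description. For Myc they were Eya4 (r = 0.9979), Arhgap35 (0.9965) and Ehbp1l1 (0.9956), and for Mycl they were Aim1 (0.9859), Apcdd1 (0.9813) and Car5b (0.9809). For Max they were Loxl4 (0.9919), Aldh18a1 (0.99) and Ttc27 (0.9886), and for Mga they were Ncapg2 (0.9948), Socs7 (0.99) and 2610507B11Rik (0.9898). Among the antagonists, Mxd1 was closest to Sertad1 (0.9972), Sdhaf1 (0.9936) and Pttg1 (0.9932), and Mxi1 to Pcmtd2 (0.9887), Pidd1 (0.9886) and Ccne2 (0.9881). Mxd4 was closest to Ninj1 (0.9852), Glud1 (0.9801) and Sh3glb2 (0.9797), Mnt to Hist1h2ac (0.9941), Sik3 (0.993) and Fam160b1 (0.993). Mxd3 had the weakest matches, Gdpd5 (0.9461), Irf2bpl (0.9432) and Gm2115 (0.9423). By Spearman correlation 3 of the 27 (Aim1 for Mycl, Gdpd5 for Mxd3 and Ninj1 for Mxd4) were among the 3 closest, with Spearman coefficients of the 27 from 0.825 to 0.993.

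MLX is the partner through which MXD1, MXD4 and MNT connect to the nutrient-sensing factors MondoA (Mlxip) and ChREBP (Mlxipl). Mlxip was the gene of this arm that differed most between genotypes, at 77 ± 0.801 CPM in untreated DKO against 39.9 ± 2.66 CPM in untreated Null (SD, n = 3), a log2 fold change of 0.95 (SE 0.06, adjusted p = 2.97e-10), and 1.17 after etoposide. Mlx was higher in DKO by 0.12 untreated, a call that ended under library size alone, and by 0.19 after etoposide. Both fell with etoposide in Null (Mlxip by 0.44, Mlx by 0.33) and in DKO (by 0.22 and 0.26), where library size alone left neither past the threshold. Mlxipl, below the filter, averaged at most 0.16 CPM in a group.

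The SIN3 corepressor is the complex that MXD and MNT proteins recruit. Of the 10 genes listed for it, 3 rose and 5 fell in Null with etoposide (median -0.18, against 0.07 for all genes, of which 42.3% rose and 37.2% fell). In DKO 1 rose and 6 fell (median -0.19, against 0.14, with 43.7% and 31.5% of all genes), where library size alone gave 5 and 3. Ncor1, listed with them but not a core SIN3 subunit, fell by 1.15 in Null and 0.82 in DKO. Sin3a, the scaffold, fell by 0.83 and 0.61. Sap30 (0.26) and Sin3b (0.14) rose in Null, and Sin3b (0.12) in DKO, where Sap30 had 0.02. Between untreated genotypes 5 were higher and 3 lower in DKO (33.3% and 33.4% of all genes), Rbbp7 (0.56) and Suds3 (0.34) being highest and Hdac1 (-0.28) and Sap30 (-0.25) lowest, whereas library size alone gave 3 higher and 5 lower. In the interaction 3 were above and 3 below 0, near the 29.6% and 24.4% of all genes, Ncor1 (0.32) and Hdac1 (0.26) against Sap30 (-0.24) and Hdac2 (-0.22), and library size alone left 4 above and 1 below.

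The partners of MGA in PRC1.6 differed in whether they moved with it. With etoposide 2 of 10 rose and 5 fell in Null (median -0.2, against 0.07, with 42.3% and 37.2% of all genes), and 2 rose and 4 fell in DKO (median 0.01, against 0.14, with 43.7% and 31.5%), where library size alone gave 5 rises in Null and 6 in DKO. Pcgf6, which defines this form of the complex, fell by 0.33 in Null and rose by 0.51 in DKO (interaction 0.84, SE 0.07, adjusted p = 4.24e-08). Ring1 gave an interaction of 0.63, and E2f6 one of -0.43. Rybp fell by 1.05 in Null and 0.66 in DKO, Yaf2 by 0.87 and 0.5, and Cbx3 by 0.6 and 0.58. E2f6 rose by 0.46 in Null and had 0.04 in DKO, and L3mbtl2 had 0.02 in Null and rose by 0.42 in DKO. Before treatment Tfdp2 (0.62) and E2f6 (0.56) were higher in DKO, and Pcgf6 (-0.64) and L3mbtl2 (-0.44) lower.

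Of 12 cofactors that MYC uses to open chromatin, release polymerase or repress genes, 10 fell and 2 rose in Null with etoposide. Their median was -0.29, against 0.07 for all genes, of which 37.2% fell and 42.3% rose. In DKO 4 rose and 4 fell (median -0.05, against 0.14 for all genes, of which 43.7% rose and 31.5% fell), and under library size alone none fell there. In the interaction 8 were above 0 and 1 below (median 0.3, against 0.05 for all genes, of which 29.6% were above and 24.4% below). Trrap, a scaffold of histone acetyltransferases, fell by 1.09 in Null (SE 0.07) and had -0.14 in DKO (adjusted p = 0.0765), with an interaction of 0.95 (SE 0.1, adjusted p = 2.43e-07). The ATPase gene Ruvbl2 rose by 0.53 and the acetyltransferase gene Kat2a by 0.5 in DKO, while in Null they fell by 0.16 and 0.1. Cdk9 (0.2) and Ccnt1 (0.19), which form P-TEFb, rose in Null, and had -0.08 (adjusted p = 0.173) and 0.12 (adjusted p = 0.0357) in DKO. Zbtb17, which encodes the repressive partner MIZ1, fell by 0.56 in Null and 0.32 in DKO and was lower in untreated DKO (-0.52), as was Ccnt1 (-0.63).

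Genes that set how long MYC protein lasts moved unevenly. Of 10 listed, 9 were tested (Cip2a was not found under this symbol), and 2 rose and 6 fell in Null (42.3% of all genes rose and 37.2% fell). In DKO 4 rose and 3 fell, a split near that of all genes (43.7% and 31.5%). Fbxw7, the ubiquitin ligase subunit that marks MYC for destruction, rose from 39.7 ± 1.22 to 78.4 ± 2.63 CPM in Null (SD, n = 3), by 0.98 (SE 0.04, adjusted p = 2.55e-13). In DKO it stood at 30.5 ± 0.632 and 28.6 ± 0.645 CPM, and the interaction was -1.07 (SE 0.06, adjusted p = 9.2e-11). Usp36, a nucleolar deubiquitinase of MYC, fell by 1.93 in Null and 1.37 in DKO, and the ligase gene Huwe1 by 1.34 and 0.7. Skp2 rose in both genotypes (0.33 and 0.42). Ppp2r5a, a regulatory subunit of protein phosphatase PP2A, had an interaction of 0.73, having fallen in Null and risen in DKO. In the interaction 4 of the 9 were above 0 and 1 below (29.6% and 24.4% of all genes), against 8 and 1 under library size alone, where the split of all genes moved the same way.

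Genes known to be activated by MYC fell in Null with etoposide more often than they rose, and were near the background in DKO. Of 34, all tested, 22 fell and 8 rose in Null (median -0.36, against 0.07 over all genes, of which 37.2% fell and 42.3% rose). In DKO 9 fell and 17 rose (median 0.15, against 0.14 over all genes, of which 31.5% fell and 43.7% rose). Library size alone gave 20 and 12 in Null and 4 and 26 in DKO. In the interaction 24 were above 0 and 4 below (29.6% and 24.4% of all genes), with a median of 0.51 against 0.05, while Myc itself had -0.67. Hk2, a glycolytic hexokinase, fell most in both, from 120 ± 1.27 to 20.2 ± 2.5 CPM in Null and from 98.1 ± 2.6 to 23.6 ± 1.27 CPM in DKO (log2 fold changes -2.57 and -2.05). Odc1, the first enzyme of polyamine synthesis, rose by 1.1 in Null (SE 0.03, adjusted p = 3.17e-15) and 0.88 in DKO, and Cdc25a by 0.65 and 0.67. Eif4e fell by 1.14 in Null and 0.48 in DKO, and Pkm by 0.39 and 0.73.
In DKO Ccnd2 rose by 1.39 (SE 0.09, adjusted p = 3.56e-10) and the mitochondrial serine enzyme Shmt2 by 1.16, with 0.11 (adjusted p = 0.263) and 0.28 (adjusted p = 2.11e-06) in Null. Polr1b, a subunit of RNA polymerase I, fell by 1.06 in Null and rose by 0.13 in DKO, an interaction of 1.19 (SE 0.06, adjusted p = 2.15e-11), second to that of Ccnd2 (1.27) among the genes of this list that averaged 10 CPM or more. Cad (-0.41) and Pkm (-0.34) had the lowest interactions. Before treatment 27 of the 34 were lower in DKO and none was higher, at a median of -0.28 against -0.02 for all genes (33.4% of them lower and 33.3% higher). Bop1 (-0.66) and Fbl (-0.64) were lowest among those that averaged 10 CPM or more. Tert, the telomerase gene, was below that level and also passed as lower, with 0.494 ± 0.109 CPM in untreated Null and 0.0251 ± 0.0434 CPM in untreated DKO. Library size alone gave 33 lower and none higher, and Myc, in the same libraries, was higher by 0.18 with the limits given above. After etoposide 20 were higher in DKO and 9 lower (37.5% and 36.6% of all genes). Among those that averaged 10 CPM or more, Ccnd2 (0.92) and Dkc1 (0.91) were highest and Cad (-0.78) and Tfrc (-0.75) lowest, and Tert was lower at 0.0746 ± 0.0666 CPM in DKO against 1.96 ± 0.265 CPM in Null.

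**Figure D4:**
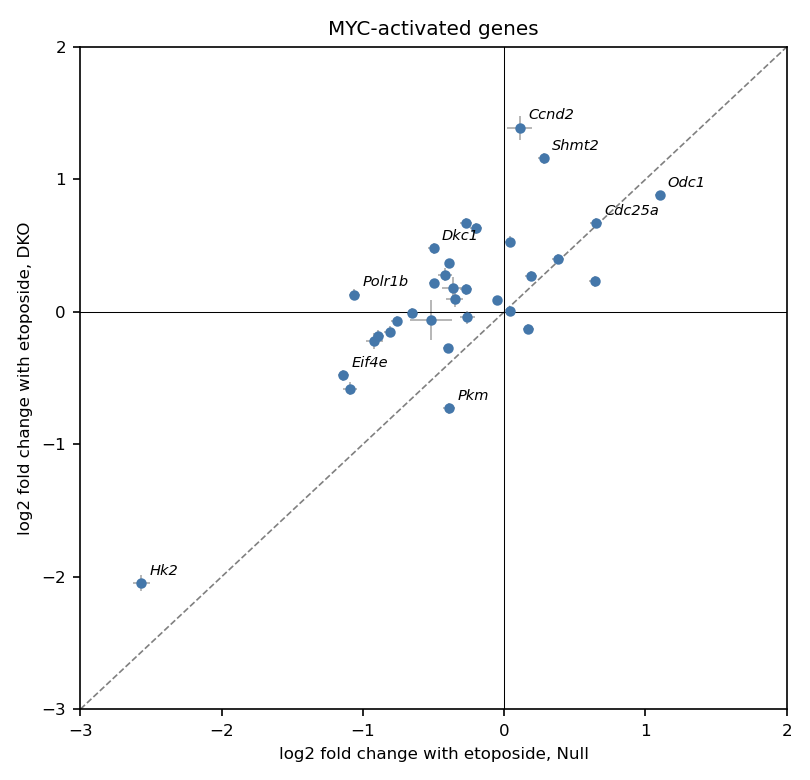
Log2 fold change with etoposide in Null (x axis) and in DKO (y axis) for the 33 MYC-activated genes that averaged 1 CPM or more, each with bars of 1 SE. The dashed line marks equal change in both genotypes, and 28 of the 33 points lie above it, whether or not the interaction passed. The median interaction of all genes was 0.05 under TMM, -0.02 with the size factors of DESeq2 and 0.15 under library size alone. That of the list of 34 was 0.51, 0.45 and 0.62.

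Most genes known to be repressed by MYC were lower with etoposide in both genotypes. Of 8, 2 rose and 6 fell in Null (median -0.41, against 0.07 for all genes, of which 42.3% rose and 37.2% fell). In DKO 1 rose and 7 fell (median -1.26, against 0.14 for all genes, of which 43.7% rose and 31.5% fell). Cdkn1a, which encodes the cell-cycle inhibitor p21 and is also a p53 target, rose from 65.7 ± 5.72 to 506 ± 7.31 CPM in Null and from 39.7 ± 1.14 to 241 ± 13.7 CPM in DKO (SD, n = 3), by 2.94 and 2.6. Gas1, a growth-arrest gene, rose by 2.17 in Null and fell by 1.73 in DKO, the lowest interaction of the list at -3.9 (SE 0.08, adjusted p = 1.1e-15). Thbs1 was at 21800 ± 701 CPM in untreated DKO against 2680 ± 108 CPM in untreated Null, and fell by 3.85 in DKO and 2.27 in Null. Pdgfrb, also a fibroblast marker, fell by 1.75 in DKO and 1.27 in Null. In the interaction 7 of the 8 were below 0 and none above (24.4% and 29.6% of all genes), with 6 and 1 under library size alone. Before treatment 5 were higher in DKO and 2 lower (33.3% and 33.4% of all genes). After etoposide the split was near that of all genes (37.5% higher and 36.6% lower), with 3 higher, led by Thbs1 (1.44) and Ndrg1 (0.72), and 3 lower, led by Gas1 (-2.81) and Cdkn2b (-1.6).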

How the data were processed

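The authors deposited 1 table of raw counts per gene, with no normalisation, made from Ribo-Zero stranded total RNA libraries (paired reads). The methods of the study name HISAT2, uniquely aligned pairs and HTSeq on GENCODE genes, while the submitters' processing notes name HISAT2, featureCounts and mm10. The table's 5 summary lines (reads given to no gene) entered neither the library sizes nor the tests, so that between 53.4% and 63.1% of all counts in a library, those on genes, were used. Groups came from the labels. One model of 4 groups was fitted to all 12 libraries in edgeR 4.0.16 (R 4.3.3) after filterByExpr and TMM scaling, without a replicate block, and 5 comparisons were drawn from it. The current version of the quasi-likelihood fit was taken as the main one after both it and the older version had been run, because its counts of called genes matched earlier results of these data. The older version was added as an alternative after seeing the data, and it calls Mnt in the interaction where the main one does not. The other alternatives were limma-trend (limma 3.58.1), DESeq2 1.42.0, other scalings and filters, a replicate block and left-out libraries. The fit was tested on simulated data. Replicates of each group differed by more than sampling noise (chi-square of 10 to 22.1 for each degree of freedom). Positions and exon lengths came from GENCODE M21 and promoter sequences from RefSeq. The members and gene lists were chosen with earlier results of these data known. The text names all members, Tfeb and Tfe3, up to 2 rises and 2 falls past the threshold per list and comparison among genes averaging 10 CPM or more, and the 3 most similar genes of each tested member. List genes beyond that rule were named after their values were seen. A gene of the protein turnover list that the rule would name is not reported here by name.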

Additional observations from a re-analysis of the deposited data

Results flagged for a closer look

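Of the 9 tested network genes, 8 responded to etoposide by different amounts in the 2 genotypes, by the interaction term of the model over all 12 libraries, in which 54% of all genes also passed. The log2 differences between the response of DKO and that of Null were -0.67 for Myc, -2.73 for Mycl, 0.86 for Max, -0.28 for Mxd1, -0.83 for Mxd3, -0.56 for Mxd4, -0.23 for Mxi1 and 0.61 for Mga. Mycl and Mxd3 rose in Null and fell in DKO, and Max fell in Null and rose by 0.12 in DKO, a call that ended in 7 of its 15 alternatives. The values for Mxd1 and Mxi1 did not hold in 4 and 7 of their 20 alternatives. Mnt, at 0.28, passed in 6 of its 20 alternatives. Each genotype was 1 line, so line and genotype cannot be told apart.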

How the results depend on the processing

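Over 45 member values and 21 alternative settings, 720 values were recomputed: 666 kept their direction and side of the threshold, 38 kept their direction but no longer passed, 11 newly passed and 5 changed sign. The sign changes were Mxd4 (0.205) and Mga (0.132) in DKO with etoposide under library size alone, and, at values near 0 that did not pass, untreated Mxd4 and Mxi1 with a library left out (from -0.098 to 0.006 and from -0.045 to 0.06). Tfe3 after etoposide likewise ran from -0.053 to 0.046. The causes were not tested.

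All 9 members passed in Null with etoposide under all 15 alternatives. With etoposide in DKO, library size alone gave 5 higher members rather than 3. Between untreated genotypes it gave 1 higher and 5 lower rather than 3 and 2. With a library left out, the untreated comparison had 3 to 5 members past the threshold, of which 1 to 2 were lower. Without untreated Null replicate 3 there were 3. The interaction had 6 to 9 with a library left out.

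For all genes, only the 4790 lower calls in DKO moved by over 1.5 times, to 3004 under library size alone. Of 70 list counts, 2 moved by that much under the size factors of DESeq2 and 17 under library size alone.

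Over 18 pairs of libraries with the same replicate number, deviations correlated at r from -0.03 to 0.04, none over 0.1. In 19 of 36 pairings the own number correlated best, against 12 where numbers do not pair. Whether the numbers pair libraries was thus not settled, and the main fit did not pair them. With the replicate block, 9 members passed in the interaction rather than 8 (Mnt joined), and the other comparisons kept 9, 8, 5 and 8. Depth limits Mycl, at 48 counts in 1 library, and Mycn, with none.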
